A study of Mus musculus with 24 samples.

Results

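The genes described here are 6 secretory products of intestinal goblet cells, Zg16, Muc2, Tff3, Fcgbp, Clca1 and Agr2, out of 55401 genes in the table. They were taken by symbol from a list written with earlier results of these data known, and the counts of all transcripts of a symbol were summed. All 6 had counts. The series holds 24 bulk RNA sequencing libraries of male C57BL/6 mice aged 11 weeks, which received propyzamide (a herbicide of the benzamide class) or vehicle alone. For each treatment 4 libraries were unstimulated (the labels call these mice naive), 4 were taken 3 h after anti-CD3 and 4 were taken 24 h after it. Anti-CD3 is an antibody against the T cell receptor complex. Every group shares strain, sex and age, and the sources used here give no tissue, dose or route, nor how many mice stand behind a library. P-values therefore measure only the spread between these libraries, which may be partly technical.

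Goblet cells store mucus in granules and release it onto the gut surface, where it keeps bacteria away from the epithelium. Muc2 is the gel-forming mucin that gives intestinal mucus its scaffold, and Fcgbp and the protease Clca1 are secreted with it as structural and processing proteins of the mucus. Zg16 is a small lectin that binds Gram-positive bacteria, Tff3 is a trefoil peptide involved in epithelial repair, and Agr2 is a protein disulfide isomerase of the endoplasmic reticulum needed to make mucin. The loss of mucus-filled goblet cells is a recognised feature of gut inflammation.

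The series title speaks of T cells, but the libraries held RNA of many cell types. Of the 11 T cell genes listed for this check, the summed level in vehicle unstimulated libraries had a median of 480 CPM over named protein-coding genes, against 39488 for 12 Paneth cell genes, 10885 for 8 plasma cell genes and 3232 for 16 genes of epithelial identity. The label of goblet cell genes could be checked only in part: the 7 goblet transcription factors had 30 counts in all in the vehicle unstimulated group, and the 16 measured further goblet products had 798. Total counts ran from 438750 to 2072033 in 23 libraries and were 9812458 in propyzamide 24 h replicate 3, called the deepest library below. Most counts lay outside named protein-coding genes, and the gene model Gm10800 alone took 41.9% to 50.3% of the counts in the 23 libraries and 20.8% in the deepest. Named protein-coding genes held 17959 to 161034 counts in the 23 libraries and 2941230 in the deepest, so each value below rests on few counts. The library names carry 2 i5 indices: one (ACTCTAGG) is shared by the vehicle 3 h libraries and all unstimulated ones, the other (TCTTACGC) by the propyzamide 3 h libraries and all taken at 24 h. The labels do not say whether it marks a batch. A comparison of 24 h with unstimulated libraries is always a comparison between the indices, so index and time cannot be told apart there. Index and treatment likewise cannot be told apart between propyzamide and vehicle at 3 h. Nor can index and time at 3 h against unstimulated with propyzamide, and the interaction at 3 h holds that same split.

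On GRCm38 with GENCODE M21, Zg16 (ENSMUSG00000049350.6) lies on chromosome 7 from 127050156 to 127087328 on the minus strand. Muc2 (ENSMUSG00000025515.15) lies on chromosome 7 from 141690340 to 141754693 on the plus strand. Fcgbp (ENSMUSG00000047730.17) lies on the same chromosome from 28071236 to 28120862 on the plus strand. Tff3 (ENSMUSG00000024029.4) lies on chromosome 17 from 31125306 to 31129646 on the minus strand, and Clca1 (ENSMUSG00000028255.6) on chromosome 3 from 145003817 to 145032776 on the minus strand. Agr2 (ENSMUSG00000020581.11) lies on chromosome 12 from 35992907 to 36004087 on the plus strand. No stretch of 31 bases of the transcripts of Zg16, Muc2, Tff3, Clca1 or Agr2 occurs in another gene of the transcriptome. For Fcgbp 12.3% of such stretches do, nearly all in 9530053A07Rik, so reads of Fcgbp could be split with that gene.

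The promoter table held 3 of the 6 genes, Muc2, Fcgbp and Agr2, and their 250 bases before the start (RefSeq, GRCm38.p6) are shown because the data below set these genes side by side and because each holds 1 or more of the motifs searched. The search covered 4 short words on both strands, and the capitals mark each match; no match overlapped another. CAGCTG is an E-box of the kind bound by basic helix-loop-helix factors such as Atoh1, TTTATG is a core word of caudal-type (Cdx) homeobox sites, TGTTTA is a forkhead core and TATAAA is the TATA box.
Muc2: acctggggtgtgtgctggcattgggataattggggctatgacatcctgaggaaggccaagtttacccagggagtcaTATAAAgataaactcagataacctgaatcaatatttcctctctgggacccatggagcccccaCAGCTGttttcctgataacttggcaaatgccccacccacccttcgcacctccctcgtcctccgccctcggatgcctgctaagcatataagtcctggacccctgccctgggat
Fcgbp: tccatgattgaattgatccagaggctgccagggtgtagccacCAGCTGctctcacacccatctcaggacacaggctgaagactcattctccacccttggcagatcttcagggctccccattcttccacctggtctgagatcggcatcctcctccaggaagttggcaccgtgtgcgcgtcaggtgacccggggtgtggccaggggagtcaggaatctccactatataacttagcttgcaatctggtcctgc
Agr2: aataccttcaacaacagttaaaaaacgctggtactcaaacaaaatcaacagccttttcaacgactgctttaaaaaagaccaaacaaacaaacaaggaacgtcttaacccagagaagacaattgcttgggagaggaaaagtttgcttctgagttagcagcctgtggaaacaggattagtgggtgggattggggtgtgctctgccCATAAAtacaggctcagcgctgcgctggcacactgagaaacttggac
The Muc2 window is chr7:141690090-141690339 on the plus strand, with TATAAA 174 bases and CAGCTG 112 bases before the start. The Fcgbp window is chr7:28070986-28071235 on the plus strand, with CAGCTG 208 bases before the start. The Agr2 window is chr12:35992675-35992924 on the plus strand, with CATAAA, which is TTTATG read on the minus strand, 47 bases before the start. In 32851 promoter windows of the same length, CAGCTG occurred in 13.0%, TTTATG in 10.8%, TGTTTA in 12.0% and TATAAA in 12.4%. A match describes these letters only, and no shared word was found in all 3 windows. The promoters of Zg16, Tff3 and Clca1 were not in the table.

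In unstimulated mice Zg16 had the highest level per length of the 6 genes. With vehicle its mean was 17.0 ± 4.34 TPM (SD, n = 4), followed by Tff3 at 12.7 ± 5.69 TPM, and the ranges of these neighbours overlapped. Muc2 followed at 4.73 ± 2.66 TPM, and all 4 Tff3 values lay above all 4 Muc2 values. Agr2 at 1.76 ± 1.10 TPM, Fcgbp at 1.74 ± 0.249 TPM and Clca1 at 1.02 ± 1.10 TPM came last, and each of these overlapped its neighbours. The annotation gives Muc2 as 8 transcripts of 241 to 2926 bases, and TPM for it is per base of these models. With propyzamide the unstimulated order was Zg16, Tff3, Agr2, Muc2, Fcgbp, Clca1, from 42.3 ± 25.4 down to 0.674 ± 0.439 TPM, and every pair of neighbours overlapped. TPM is a share of each library, so models such as Gm10800 bear on it. Below, levels are given for 1 gene at a time as CPM after TMM scaling.

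Mucus genes were lower 24 h after anti-CD3. Over both treatments together Zg16, Tff3 and Fcgbp fell, and Muc2 and Agr2 had negative fold changes that did not pass. Clca1 had too few counts for the main fit across genes. It was lower in an exact permutation test adjusted over its own 12 tests, but 0 of the 2 alternative fits across genes that held it called it. Zg16 had the largest difference of the 6 genes on the log2 scale. In bulk RNA, fewer goblet cells and less of these RNAs per cell cannot be told apart.

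**Figure D1:**
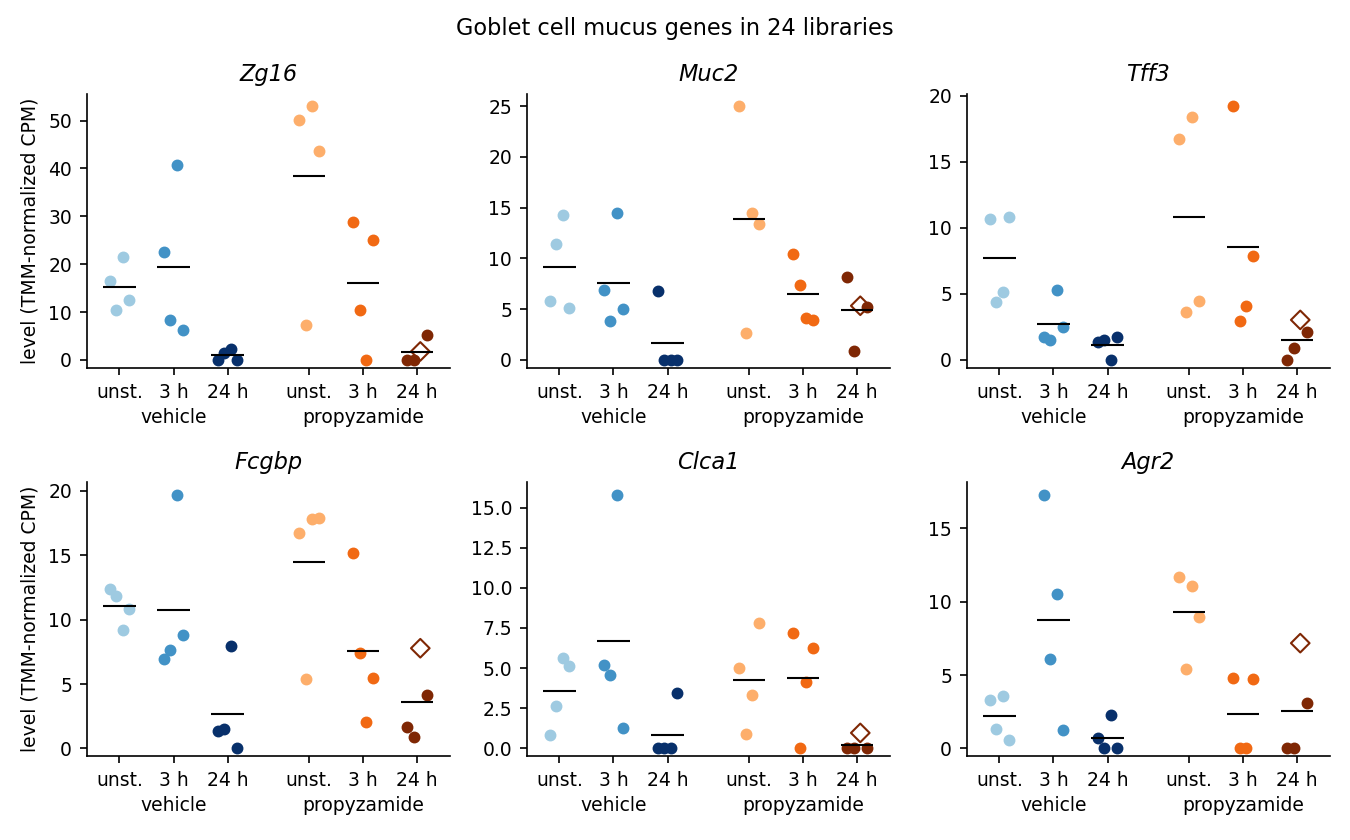
Level of each of the 6 mucus genes in all 24 libraries, as TMM-normalized CPM (vertical axis, a scale of its own in each panel), by treatment and time after anti-CD3 (unst., unstimulated). Points are libraries, bars are means of 4, and the open diamond is the deepest library; all 8 values of Zg16 and of Tff3 at 24 h lie below their lowest unstimulated values of 7.20 and 3.60.

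Zg16 was measured at 16.5, 10.5, 21.5 and 12.5 CPM in the vehicle unstimulated libraries. It was 0, 1.49, 2.28 and 0 CPM at 24 h, from 0, 1, 2 and 0 counts. All 4 libraries at 24 h were thus below every unstimulated one. With propyzamide Zg16 was 50.1, 7.20, 53.0 and 43.6 CPM unstimulated. At 24 h it was 0, 0, 1.78 and 5.19 CPM, the third being the deepest library with 57 counts. Again the groups did not overlap. Over both treatments edgeR's quasi-likelihood test gave a log2 fold change of -4.21 ± 0.66 (standard error, Benjamini-Hochberg adjusted p = 4.50e-04), with 8 of 8 libraries at 24 h below the lowest unstimulated library. As a ratio of summed counts scaled by library size, Zg16 was 17.9-fold lower at 24 h with vehicle (95% counting interval 5.98 to 88.4) and 21.9-fold lower with propyzamide (16.3 to 29.7). Without the deepest library the interval of the latter ratio was 8.82 to 65.5. With propyzamide 57 of the 62 counts at 24 h came from the deepest library. The intervals here and below hold counting error alone, because they pool the libraries of a group and leave out the spread between them. The reads also carry no molecular identifiers and need not be separate molecules, so the counting error itself may be larger.

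Tff3, the trefoil peptide, was 10.7, 4.38, 5.12 and 10.8 CPM in vehicle unstimulated libraries. It was 1.36, 1.49, 0 and 1.72 CPM at 24 h. The groups did not overlap. With propyzamide Tff3 was 16.7, 3.60, 18.4 and 4.47 CPM unstimulated. At 24 h it was 0, 0.903, 3.03 and 2.08 CPM. Here too every 24 h library was below every unstimulated one, the nearest pair being 3.03 in the deepest library and 3.60. Tff3 fell by 2.57 ± 0.57 on the log2 scale over both treatments (edgeR adjusted p = 0.0106). Of the 3799 genes tested, 5 (0.132%) had all 8 libraries at 24 h below all 8 unstimulated ones. Zg16 and Tff3 are 2 of them, and the others, named after their values were seen, are the defensin Defa36, the gene model Gm22824 and the vomeronasal receptor Vmn2r27. Without the deepest library 37 genes (0.974%) did so.

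Fcgbp, the large Fc-binding mucus protein, was 12.4, 11.8, 9.22 and 10.8 CPM in vehicle unstimulated libraries. It was 1.36, 1.49, 7.99 and 0 CPM at 24 h. The groups did not overlap, although replicate 3 at 24 h stood well above the other 3. With propyzamide Fcgbp was 16.7, 5.40, 17.8 and 17.9 CPM unstimulated. At 24 h it was 1.63, 0.903, 7.78 and 4.15 CPM. These groups overlapped through the deepest library, at 7.78, and through unstimulated replicate 2, at 5.40. Fcgbp fell by 1.81 ± 0.47 on the log2 scale over both treatments (edgeR adjusted p = 0.0281). This call was lost when any 1 of 4 libraries was left out: propyzamide unstimulated replicate 3 (adjusted p = 0.0508), vehicle 24 h replicate 1 (0.0504) or 2 (0.0696), or propyzamide 24 h replicate 2 (0.0533). It was also lost with RLE normalization, at -1.64 (adjusted p = 0.0573), and on log2(TPM + 1), at -0.96 (limma adjusted p = 0.179). The added 1 makes differences smaller at levels this low, a mean of 1.74 TPM in vehicle unstimulated libraries.

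Muc2, the scaffold mucin, was 5.78, 11.4, 14.3 and 5.11 CPM in vehicle unstimulated libraries. At 24 h it was 6.82 CPM in replicate 1 and 0 in the other 3 libraries. Replicate 1, with 10 counts, thus lay inside the unstimulated range. With propyzamide Muc2 was 25.0, 2.70, 14.5 and 13.4 CPM unstimulated. It was 8.14, 0.903, 5.34 and 5.19 CPM at 24 h. These groups overlapped because unstimulated replicate 2 was low. The log2 fold change over both treatments was -1.72 ± 0.54 and did not pass (edgeR adjusted p = 0.0736). It passed without vehicle 24 h replicate 1, at -4.59 (adjusted p = 0.00499), and without propyzamide unstimulated replicate 2, at -1.94 (adjusted p = 0.0405). In the first of these fits all remaining vehicle 24 h libraries were at 0, so the size of -4.59 depends on how the fit treats 0 counts.

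Agr2, the disulfide isomerase, was 3.30, 1.31, 3.59 and 0.568 CPM in vehicle unstimulated libraries. At 24 h it was 0.682, 0, 2.28 and 0 CPM. The groups overlapped, and they rest on 1 to 7 counts a library unstimulated and 0 to 2 at 24 h. With propyzamide Agr2 was 11.7, 5.40, 11.1 and 8.94 CPM unstimulated. It was 0, 0, 7.18 and 3.11 CPM at 24 h. The deepest library, with 230 counts, was the only one of the 4 inside the unstimulated range. Over both treatments the log2 fold change was -1.39 ± 0.75 (edgeR adjusted p = 0.319).

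Clca1, the mucus protease, was 0.826, 2.63, 5.64 and 5.11 CPM in vehicle unstimulated libraries and 0, 0, 0 and 3.44 CPM at 24 h. Only replicate 4 at 24 h had counts, 2 in number, and it lay inside the unstimulated range. With propyzamide Clca1 was 5.01, 0.90, 3.34 and 7.82 CPM unstimulated and 0, 0, 0.968 and 0 CPM at 24 h, where only the deepest library had counts. Over both treatments the mean was 3.91 CPM unstimulated and 0.551 CPM at 24 h (exact two-sided permutation test, n = 8 against 8, p = 0.00373, adjusted 0.0224 over 12 such tests). These 12 tests are all of Clca1, while the other members were adjusted over all genes tested. Fits across genes held Clca1 only with no filter and with DESeq2. In this comparison 0 of these 2 fits called it, at log2 fold changes of -2.60 and -2.56 and a lowest adjusted p of 0.092. Within a treatment, 4 libraries against 4 allow no p below 0.0286. The exact permutation p was 0.0857 with vehicle and 0.0571 with propyzamide (adjusted 0.206 and 0.171). Without the deepest library Clca1 had 0 counts in propyzamide at 24 h against 17 unstimulated, at least 3.46-fold lower against a floor of 3 counts over the group.

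Counted over the 5 members that passed the filter on low counts, 3 were called lower over both treatments. Of the 3799 genes 0.921% were called lower and 2.37% in either direction. The members were listed with earlier results of these data known, and a member could pass the filter through its unstimulated or 3 h libraries. Such counts of members, here and below, are therefore a description and no independent support. The median of the 5 log2 fold changes was -1.81, against -0.01 over all genes tested. In a fit on named protein-coding genes only, which tested 4 members, all 4 were called lower over both treatments (3.35% of 2475 genes). Muc2 was at -1.94 there, with an edgeR adjusted p of 0.0146. Within treatments fewer members passed. With vehicle alone edgeR called 0 of the 5 (0.421% of all genes, 0.105% lower), 4 had an unadjusted p under 0.05, and DESeq2 called 1, Zg16. The log2 fold changes with vehicle were -4.06 ± 1.04 for Zg16 (edgeR adjusted p = 0.078), -2.73 ± 0.88 for Tff3, -1.96 ± 0.80 for Muc2, -1.95 ± 0.70 for Fcgbp and -1.33 ± 1.23 for Agr2. In the fit on named protein-coding genes only, Zg16 was called (edgeR adjusted p = 0.0121), as were 0.687% of those genes in the same direction. Without overlap of the groups 3 of the 5 were lower, against 4.29% of all genes.

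With propyzamide alone 1 of the 5 members, Zg16, was called, where 0.0790% of all genes were called and 0.0263% called lower. Zg16 changed by -4.37 ± 0.84 (edgeR adjusted p = 0.0302), and it was the 1 gene called lower in that comparison, as in the fit on named protein-coding genes only (0.0404%). The call was lost without propyzamide unstimulated replicate 1, 3 or 4 (adjusted p = 0.0719, 0.113 and 0.0859) and without propyzamide 24 h replicate 2 (adjusted p = 0.115). The other fold changes were -2.42 ± 0.73 for Tff3, -1.68 ± 0.61 for Fcgbp, -1.49 ± 0.71 for Muc2 and -1.45 ± 0.88 for Agr2. Zg16 and Tff3 were lower without overlap, as were 2.16% of all genes. Without the deepest library Fcgbp, Clca1 and Agr2 also did not overlap, and the share of all tested genes lower in this way was 4.47%. The interaction of treatment and time at 24 h, which tests whether the 2 differences differ, called 0 members with edgeR and 0 with DESeq2 (0 had an unadjusted p under 0.05, and 0% of all genes were called), and the log2 values ran from -0.31 to 0.47.

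**Figure D2:**
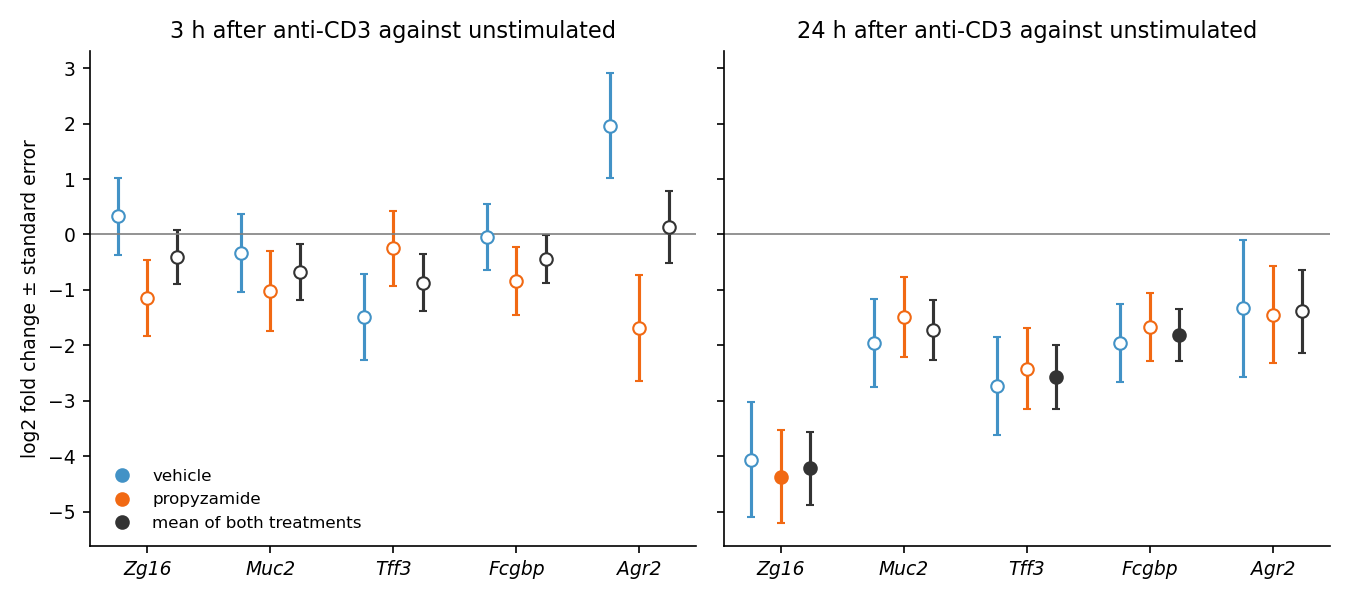
Log2 fold change against unstimulated libraries (vertical axis, bars are the standard error) at 3 h, left, and 24 h, right, for the 5 mucus genes that passed the filter on low counts. Filled points had an edgeR adjusted p of 0.05 or less. At 24 h all 15 points lie below 0, and 4 of them are filled, while at 3 h none is. Of the 15 points 5 are means of both treatments, whose sign follows from the others, and 3 of the filled points are such means.

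At 3 h no member had changed by this test. Over both treatments edgeR called 0 of the 5 (2.29% of all genes, 1.84% lower), 0 had an unadjusted p under 0.05, and DESeq2 called 0. The log2 fold changes ran from -0.87 to 0.14. With vehicle 0 were called (0.290% of all genes and 0.105% lower, 1 member at an unadjusted p under 0.05, 0 by DESeq2), and with propyzamide 0 (0.711% and 0.553% lower, 0 members at an unadjusted p under 0.05, 0 by DESeq2). Zg16 with vehicle was 22.5, 8.37, 40.7 and 6.31 CPM at 3 h, both above and below the unstimulated libraries. With propyzamide it was 28.8, 10.4, 0 and 25.1 CPM.

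The 2 members with the most unlike values at 3 h were Tff3 and Agr2. Tff3 with vehicle was 1.73, 1.52, 5.26 and 2.52 CPM, from 1 to 4 counts a library, with a log2 fold change of -1.49 ± 0.78 that did not pass (edgeR adjusted p = 0.862). Only replicate 3 reached the unstimulated range. Tff3 with propyzamide was 19.2, 2.97, 4.11 and 7.85 CPM. Agr2 with vehicle was 17.3, 6.09, 10.5 and 1.26 CPM, a log2 fold change of 1.96 ± 0.94 (edgeR adjusted p = 0.776). With propyzamide it was 4.81, 0, 0 and 4.71 CPM, below every unstimulated library of that treatment, as 5.11% of all genes were. Its log2 fold change there was -1.69 ± 0.95 (edgeR adjusted p = 0.443). The interaction for Agr2 was -3.65 ± 1.34 (edgeR adjusted p = 0.997, unadjusted p = 0.0107), and 0 genes of the table were called for it by edgeR (1 of the 5 members had an unadjusted p under 0.05, and DESeq2 called 0 members).

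Between 3 h and 24 h the same members were again lower. Over both treatments 3 of the 5 were called, Zg16, Tff3 and Fcgbp, in a comparison that called 22.5% of all genes in either direction and 8.29% of all genes lower. Zg16 changed by -3.80 ± 0.67 (edgeR adjusted p = 7.05e-04). Tff3 changed by -1.70 ± 0.62 (adjusted p = 0.0484) and Fcgbp by -1.38 ± 0.48 (adjusted p = 0.0420). The calls of Tff3 and Fcgbp depended on single libraries: leaving out 1 library took away the call of Tff3 in 9 of 24 fits and that of Fcgbp in 6 of 24, with adjusted p up to 0.121 and 0.0938, both without vehicle 3 h replicate 3. Of 8 other settings the call of Tff3 held in 2 and that of Fcgbp in 3, while Zg16 was called in all 8. With DESeq2 the adjusted p was 0.128 for Tff3 and 0.129 for Fcgbp, and with no filter on low counts edgeR gave 0.266 and 0.250. Clca1 had a mean of 5.55 CPM at 3 h and 0.551 at 24 h (exact two-sided permutation p = 0.0028, n = 8 against 8, adjusted 0.0224). The 2 fits across genes that held Clca1, edgeR with no filter and DESeq2, both called it lower here. Their log2 fold changes ran from -3.02 to -3.01 and their adjusted p from 0.00892 to 0.0152. These comparisons share the 24 h libraries with those above and are not a second set of measurements. With vehicle the 2 times carry different indices, so over both treatments index and time are mixed in part.

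The comparison of 24 h with 3 h under propyzamide is the one between those times in which all libraries carry the same index. It called 2 of the 5 members, Zg16 and Tff3, where 15.2% of all genes were called in either direction and 6.63% of all genes lower. Zg16 changed by -3.22 ± 0.84 (edgeR adjusted p = 0.0189) and Tff3 by -2.17 ± 0.74 (adjusted p = 0.0451), while Agr2 had 0.24 ± 0.94. Zg16 lost its call without propyzamide 3 h replicate 4 (adjusted p = 0.0529) or propyzamide 24 h replicate 2 (0.0532) or 3 (0.0578), and Tff3 lost its call in 7 of 24 such fits, with an adjusted p of up to 0.186 without propyzamide 3 h replicate 1. The Zg16 groups overlapped, since 3 h replicate 3 was also at 0. With vehicle, where the 2 times carry different indices, edgeR called 0 members and 0% of all genes (3 members had an unadjusted p under 0.05, and DESeq2 called 1), and Zg16 had -4.38 ± 1.05 (edgeR adjusted p = 0.106). All 4 of its vehicle 24 h values lay below all 4 at 3 h, as for 5.45% of genes.

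No member passed the test between propyzamide and vehicle. At each of the 3 stages edgeR called 0 of the 5 members and 0% of all genes, and DESeq2 called 0. The members with an unadjusted p under 0.05 were 1, 1 and 0 in number for unstimulated, 3 h and 24 h. In unstimulated libraries, which share an index, Zg16 had a mean of 38.5 ± 21.2 CPM with propyzamide and 15.3 ± 4.86 with vehicle (SD, n = 4), a log2 fold change of 1.33 ± 0.67. In 3 propyzamide libraries it lay above all vehicle libraries and in the remaining one below them. Agr2 was 9.29 ± 2.86 against 2.19 ± 1.48 CPM, a log2 fold change of 2.08 ± 0.93 (edgeR adjusted p = 1, unadjusted 0.0323). Its 2 groups did not overlap, from 5.40 to 11.7 CPM with propyzamide and from 0.568 to 3.59 with vehicle, higher without overlap as for 0.974% of genes. The vehicle counts behind this were 4, 3, 7 and 1. At 3 h, where the 2 treatments carry different indices, Tff3 had a log2 difference of 1.73 ± 0.79 (edgeR adjusted p = 1). At 24 h the 5 values ran from 0.66 to 1.96.

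The make-up of the mucus counts is given as a description. Zg16 supplied 30.8% of the 351 counts of the 6 genes in vehicle unstimulated libraries (exact binomial 95% interval 26.0 to 35.9) and 42.9% of 401 with propyzamide (38.0 to 47.9). At 3 h it was 33.7% with vehicle and 37.3% with propyzamide. At 24 h Zg16 supplied 3 of 32 counts with vehicle, 9.38% (1.98 to 25.0). In the deepest library it supplied 57 of 835, 6.83% (5.21 to 8.75), and in the other 3 propyzamide libraries 5 of 28, 17.9% (6.06 to 36.9). Agr2 supplied 27.5% of the deepest library (24.5 to 30.7), against 4.27% and 10.2% in the unstimulated groups. The intervals pool the libraries of a group and do not hold the spread between them, so no test is given. A share of 6 genes must rise in some when it drops in another.

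**Figure D3:**
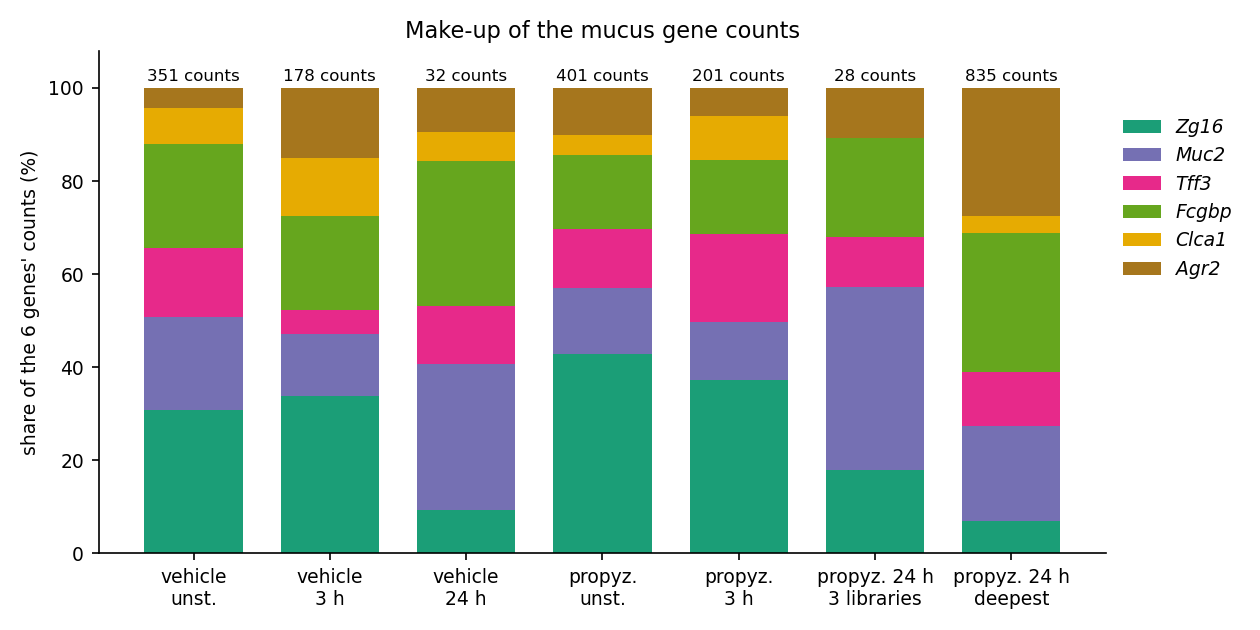
Share of the counts of the 6 mucus genes (vertical axis, percent) that each gene supplied, by group, with the number of counts above each bar; unst. is unstimulated, and the propyzamide 24 h libraries are split into the deepest and the other 3. Zg16 takes 30.8% and 42.9% in the unstimulated groups and 6.83% in the deepest library, where Agr2 takes 27.5%.

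The mucus genes were not alone in being lower at 24 h, and the other genes of the epithelium were read from lists chosen with these data in view. Of 16 genes of epithelial identity 11 were tested, 10 had negative log2 fold changes over both treatments and 3 fell: Elf3, an epithelial transcription factor (-2.58 ± 0.48, edgeR adjusted p = 0.00227), Lgals4, a galectin of the gut lining (-2.58 ± 0.63, adjusted p = 0.0189), and the claudin Cldn3 (-2.45 ± 0.65, adjusted p = 0.0362). Their median was -1.69. Of 16 enterocyte genes 10 were tested, all 10 had negative values with a median of -2.19, and edgeR called 0 (8 had an unadjusted p under 0.05, and DESeq2 called 2); among them were the fatty acid binding proteins Fabp1 (-2.50 ± 0.74, adjusted p = 0.0597) and Fabp2 (-2.34 ± 0.72, adjusted p = 0.0732). Of 12 Paneth cell genes 11 were tested and 4 fell, with a median of -1.09, among them Lyz1 (-1.29 ± 0.28, adjusted p = 0.00836). Of the 8 plasma cell genes, which are not epithelial, 5 were tested and 2 fell: Jchain, the joining chain of secreted antibodies (adjusted p = 0.00336), and Igha, the heavy chain of IgA (-1.85 ± 0.45, adjusted p = 0.0177). Olfm4, a crypt base marker, fell by 2.09 ± 0.42 (adjusted p = 0.00444). The 4 T cell genes and 8 B cell genes tested had medians of 1.46 and 0.92, with 0 called by edgeR (3 and 6 at an unadjusted p under 0.05, 1 and 4 by DESeq2).

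These list values were unlike in the 2 treatments. The median of the enterocyte genes at 24 h was -3.50 with vehicle and -0.94 with propyzamide, and edgeR called 0 in each (7 and 0 at an unadjusted p under 0.05, 1 and 0 by DESeq2). That of the epithelial identity genes was -2.59 with vehicle, with 1 called lower, and -0.83 with propyzamide, with 0 called (1 at an unadjusted p under 0.05, 0 by DESeq2). The 5 mucus genes had medians of -1.95 and -1.68. Between 24 h and 3 h with propyzamide, within 1 index, the medians were 1.19 for enterocyte genes, with 1 called higher and 0 lower, and 0.37 for epithelial identity genes, with 0 called (0 at an unadjusted p under 0.05, 0 by DESeq2), while Zg16 and Tff3 were called lower there. The deepest library bears on these values, as summed CPM over named protein-coding genes shows. The enterocyte sum with propyzamide was 911 to 9428 unstimulated and 613 to 1665 at 3 h. At 24 h it was 227 to 313 in the other 3 propyzamide libraries, 6672 in the deepest and 196 to 277 with vehicle. The epithelial identity sum at 24 h was 454 to 1412 in those 3, 5878 in the deepest and 308 to 889 with vehicle. Without the deepest library Zg16 (-3.09) and Tff3 (-2.88) were not called between 24 h and 3 h with propyzamide (edgeR adjusted p = 0.0578 for each). Whether a list differs between treatments was not tested. At 3 h, where no mucus gene was called, 9 of the 11 Paneth cell genes fell over both treatments, Lyz1 by 1.89 ± 0.28 (adjusted p = 1.80e-04). Whether the 2 sets differ at 3 h was not tested.

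Genes that serve mucin production were mostly too few in counts to test. None of the 7 goblet transcription factors passed the filter, and Klf4 and Spdef, the most counted, had 51 and 19 counts in the 23 libraries. None of the 13 enzymes of mucin O-glycosylation passed either, with St3gal1 at 74 and C1galt1 at 57 counts there. The O-glycosylation sum had a median of 175 CPM over named protein-coding genes in vehicle unstimulated libraries (123 to 261) and 221 at 24 h (185 to 336), and these enzymes are made by many cell types. Of 11 genes of the secretory pathway 2 were tested. Xbp1, a transcription factor of secretory cells that plasma cells also express, had 0.12 ± 0.34 and the inflammasome gene Nlrp6 had -0.99 ± 0.72 (edgeR adjusted p = 0.898 and 0.473; 0 at an unadjusted p under 0.05, 0 by DESeq2). Of 16 further goblet products 5 were tested, all 5 had negative log2 fold changes at 24 h with a median of -1.05, and edgeR called 0 (3 at an unadjusted p under 0.05, 1 by DESeq2). The nearest was the peptide Spink4 (-1.05 ± 0.30, edgeR adjusted p = 0.0553). The most counted over all 24 libraries were Lypd8 (-0.63 ± 0.56) and the membrane mucin Muc13 (-1.87 ± 0.66). Their counts were 4942 and 1062, and 438 and 189 without the deepest library. At 3 h over both treatments Ang4 of this list was called lower (-1.50 ± 0.37, edgeR adjusted p = 0.021). Whether its counts came from goblet cells or from other cells, such as Paneth cells, was not tested. Spink4 (-1.07 ± 0.31), Lypd8 (-1.10 ± 0.56) and Muc13 (-0.65 ± 0.56) had negative values there that did not pass, and Ccl6 had 0.54 ± 0.54.

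The mucus genes were also set against the other epithelial genes library by library. The summed level of the 6 genes was 596 to 892 CPM over named protein-coding genes in vehicle unstimulated libraries and 61.6 to 179 at 24 h. That of the 16 epithelial identity genes was 3043 to 3786 and 308 to 889. The ratio of the 2 sums had a median of 0.214 unstimulated and 0.225 at 24 h, with overlapping ranges (0.196 to 0.268 and 0.167 to 0.344). With propyzamide the same ratio had a median of 0.24 (0.154 to 0.403) and 0.127 (0.0483 to 0.316), again with overlap. With vehicle the ratio to the enterocyte sum had medians of 0.337 (0.252 to 0.516) unstimulated and 0.538 (0.231 to 0.714) at 24 h. With propyzamide these were 0.424 (0.148 to 0.551) and 0.306 (0.0425 to 1.06), and the ranges overlapped in each treatment. Against the Paneth cell sum the ratio with vehicle was 0.0199 (0.0162 to 0.0203) and 0.00563 (0.00430 to 0.0140), lower at 24 h without overlap. With propyzamide it was 0.0416 (0.00594 to 0.0584) and 0.00721 (0.00265 to 0.0512), with overlap. In propyzamide 24 h replicate 3 the values lay otherwise. Its epithelial identity sum was 5878 and its enterocyte sum 6672 CPM, each the second highest of the 24 libraries, while its mucus sum was 284, below the lowest unstimulated library of the 2 treatments at 381. The ratio to the epithelial identity sum was 0.0483 there and at least 0.075 in each other library. The ratio to the enterocyte sum was 0.0425 there and at least 0.148 in each other. This is 1 library, and its depth and its smaller share of Gm10800 counts set it apart as well; their part in the low ratio was not tested. Its Paneth cell sum was also low, 5543 CPM against 23194 or more in each unstimulated library.

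**Figure D4:**
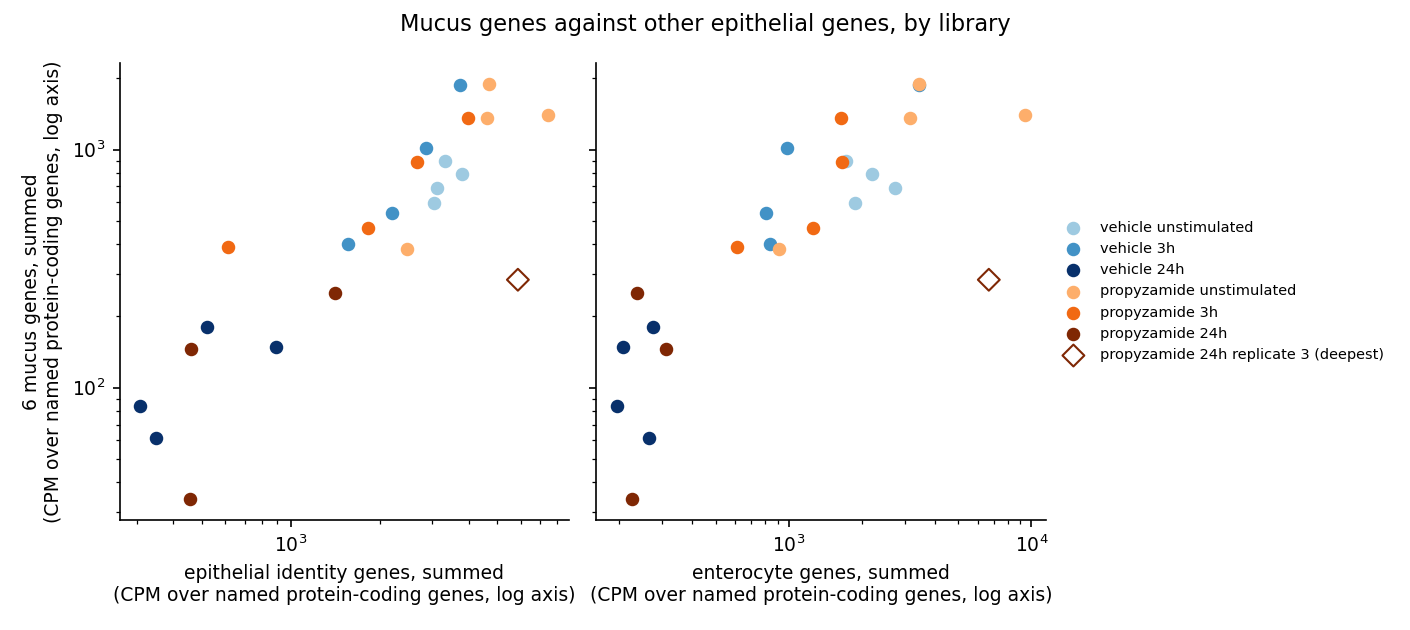
Summed level of the 6 mucus genes (vertical axis) against the summed level of 16 epithelial identity genes, left, and 16 enterocyte genes, right, for each library, all as CPM over named protein-coding genes on log axes. The libraries at 24 h sit at the lower left except the deepest (open diamond), which has a mucus sum of 284 at an epithelial sum of 5878 and an enterocyte sum of 6672.

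The genes whose levels ran most like the mucus genes were sought among 2461 named protein-coding genes, by Spearman correlation over the 24 libraries with the mean of the 5 members that passed the filter, each standardised on the log2 scale. The 5 nearest were the keratin Krt8 (0.91), the galectins Lgals4 (0.90) and Lgals2 (0.87), the adhesion molecule Epcam (0.85) and the cadherin Cdh17 (0.85). The same 5 led without the deepest library, at 0.88 to 0.95. The points share libraries, depth and the difference between times, so the correlations only describe this table. Krt8, the nearest, had 35.2 ± 11.3 CPM in vehicle unstimulated libraries and 3.45 ± 3.88 at 24 h (SD, n = 4), and its own log2 fold change over both treatments was -1.96 ± 0.57 (edgeR adjusted p = 0.0579).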

How the data were processed

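RNA from 24 libraries of 6 groups was sequenced after SMART-seq2 preparation, per the labels' protocols. Transcripts were quantified with kallisto on GRCm38, per the submitters' processing notes; the version is not given in the sources used here. For each of 142604 transcripts the deposited files give an expected count, that is kallisto's estimated count without any scaling, per the file headers. TPM values and effective lengths in bases (unit class other) were deposited beside them.

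The members and all gene lists were chosen with earlier results of these data known. Expected counts were summed to 55401 genes and rounded. Total counts ran from 438750 to 9812458. Tests used edgeR 4.0.16 in R 4.3.3 (filterByExpr, TMM, quasi-likelihood F test, 1 coefficient per group over 24 libraries), tested on simulated data. The filter kept 3799 genes, 2466 of them named protein-coding; named leaves out numbered and clone models, mitochondrial genes and the Olfr and Vmn receptor families. A gene counted as called when its p, adjusted over all tested genes by Benjamini and Hochberg's method, was at most 0.05. There were 14 comparisons: 3 h and 24 h against unstimulated and 24 h against 3 h, each within either treatment and over the mean of both; propyzamide against vehicle at 3 stages; and 2 interactions. CPM is counts scaled to the TMM-adjusted library size; CPM over named protein-coding genes divides by their counts. Clca1 failed the filter and was tested by exact permutation in SciPy 1.17.1. The text names the 6 members, the 5 genes most like them, and the 2 most counted genes of each list; other listed genes named were chosen after their values were seen. Alternatives were RLE normalization, no filter, DESeq2 1.42.0, named protein-coding genes only, only the groups compared, limma-voom with quality weights and limma-trend on log2(TPM + 1) with limma 3.58.1, and leaving out each library. Replicates were numbered in record order and were not paired.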

Additional observations from a re-analysis of the deposited data

Results flagged for a closer look

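Each of the 6 genes was examined in each of the 6 groups for a library whose gap to its nearest neighbour passed the 95% critical value of Dixon's test for 4 libraries. This held in 5 of 36 cases, where chance flags about 1 in 20 groups of continuous values. That rate does not hold for 3 of the 5, in which the other 3 libraries are all at 0 and any count passes. Muc2 in vehicle 24 h was 6.82 CPM in replicate 1 and 0 in the other 3. Fcgbp in vehicle 3 h was 19.7 CPM in replicate 3, above the rest, and that replicate also had the highest Zg16, Muc2, Tff3 and Clca1 values of its group. Fcgbp in propyzamide unstimulated was 5.40 CPM in replicate 2, below the rest. Clca1 in vehicle 24 h was 3.44 CPM in replicate 4, from 2 counts, and 0 in the others. Clca1 in propyzamide 24 h was 0.968 CPM in the deepest library and 0 in the others, which hold 767649 to 1021788 total counts each against 9812458.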

How the results depend on the processing

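No paired analysis was possible because the labels carry no replicate numbers. The number of members called moved as follows. For 24 h against unstimulated with vehicle it was 0, and 1 with no filter, with DESeq2, with named protein-coding genes only and with only the groups compared, 2 with named protein-coding genes and without propyzamide 24 h replicate 3, and 0 to 1 when 1 library was left out. With propyzamide it was 1, and 0 with only the groups compared (2 members tested), limma-voom and limma-trend on TPM, 3 with named protein-coding genes and without replicate 3, and 0 to 1 when 1 library was left out. Over both treatments it was 3, then 2 with RLE, 1 on TPM, 4 with named protein-coding genes with or without replicate 3, and 2 to 4 when 1 library was left out. For 24 h against 3 h with vehicle it was 0, and 1 with no filter, DESeq2 and named protein-coding genes with or without replicate 3, and 0 to 1 when 1 library was left out. With propyzamide it was 2, then 1 with RLE, no filter or DESeq2, 0 with only the groups compared (0 members tested), limma-voom or TPM, and 0 to 2 when 1 library was left out. Over both treatments it was 3, then 1 with RLE, only the groups compared (1 tested) or TPM, 2 with no filter, DESeq2 or limma-voom, 4 with named protein-coding genes and without replicate 3, and 1 to 3 when 1 library was left out. With no filter and with DESeq2 these 2 were Zg16 and Clca1. The other 8 comparisons stayed at 0 in each of these settings. The Agr2 value for 24 h against 3 h with propyzamide, 0.24, was -0.11 with limma-voom, ran from -1.21 (without the deepest library) to 0.50 when 1 library was left out, and was -1.69 with named protein-coding genes and without that library; the cause was not tested. Over all genes, 24 h against unstimulated over both treatments gave 90 calls, 38.9% lower, against 123 (24.4%) with RLE, 155 (61.9%) with no filter, 228 (32.9%) with DESeq2, 131 (63.4%) with named protein-coding genes only, 225 (48.9%) with limma-voom and 11 on TPM. RLE put the median of all genes at 0.14 and DESeq2 at 0.39, against -0.01. The setting with propyzamide 24 h replicate 3 left out of the named protein-coding genes was chosen after seeing the data. Depth limits each of these values: 23 libraries hold 0 to 95 counts of any member each.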

Other observations

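The estimated counts of Zg16 were divided between its transcript models in a way that differed by library. Zg16-202 held 210.8 of the estimated counts in 23 libraries and Zg16-201 held 212.2, but Zg16-202 was at 0.0 in all 4 vehicle 3 h libraries, in all 4 vehicle 24 h libraries and in the deepest library, where Zg16-201 held 47.7. Fcgbp showed the same kind of split: the coding models Fcgbp-201 and Fcgbp-203 held 58.0 and 58.5 in 23 libraries, and 179.9 and 0.0 in the deepest. Sums over a gene do not depend on this division, while TPM does through the model lengths. No test was made of it.

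The retained-intron model Fcgbp-205 held 29.2% of the Fcgbp counts of the 23 libraries. In vehicle unstimulated libraries it held 33.3 estimated counts, above Fcgbp-201 at 14.0 and Fcgbp-203 at 17.9, while in propyzamide unstimulated libraries it held 4.2, below 23.7 and 29.4. It was at 1 or more in 4 of 4 and in 1 of 4 of these libraries, a difference that was seen after the values and not tested.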
